A study of Mus musculus with 6 samples.

Results

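Genes that mark cholinergic, serotonergic and noradrenergic neurons were followed library by library in the substantia nigra of fasted and freely fed mice. The genes were chosen by name with earlier results of the same libraries known, and the cholinergic ones were selected on their counts, since 1 ad libitum library was far higher than the others for them. Their levels are therefore given as a description. Of 10 genes listed, 7 had a row in the table of 19251 genes: the cholinergic genes Chat, Slc5a7, Slc18a3, Lhx8 and Ngfr and the serotonergic genes Tph2 and Slc6a4. The serotonergic gene Fev and the noradrenergic genes Dbh and Slc6a2 were not analysed here. Of the 7, 6 passed the filter on low counts, and Slc6a4 did not.

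The series asked how intermittent fasting acts on midbrain signalling in a model of Parkinson's disease. The tested diet was intermittent fasting in C57BL/6 mice with rAAV-A53T-aSynuclein (3 libraries), in which food was withheld for 24 hours on 3 days a week, and the other diet was ad libitum feeding in C57BL/6 mice with the same rAAV-A53T-aSynuclein (3 libraries). All 6 libraries thus share the vector, a recombinant adeno-associated virus that carries the A53T form of alpha-synuclein, so no library without it was compared. The labels name no promoter for it. Both diets began 2 weeks after surgery and ran for 10 weeks. The labels give no age and do not state that each library came from its own mouse, so p-values measure the spread between these libraries, which may be technical in part.

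Acetylcholine neurons make their transmitter from choline and acetyl-CoA, load it into vesicles and take choline back up after release. In the brain such neurons lie in the basal forebrain, the striatum, the medial habenula, the tegmentum of the midbrain and pons, and the cranial motor nuclei. Serotonin neurons lie in the raphe nuclei and noradrenaline neurons in the locus coeruleus and other hindbrain groups, and fibres of both reach the substantia nigra. Neurons of the substantia nigra pars compacta itself use dopamine.

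Total estimated counts ran from 42990234 to 46594066 in the fasting libraries and from 46337950 to 48179706 in the ad libitum libraries. Markers of midbrain dopamine neurons were present in all 6, with a summed level over 10 genes of 727 to 1354 CPM (counts scaled to library size with TMM factors) under fasting and 768 to 1961 CPM ad libitum, highest in ad libitum replicate 3. Ad libitum replicate 2 stood apart from the rest. Of 19109 genes tested, 0.256% had a highest library at least 4-fold above the next highest and at 1 CPM or more, which is 49 genes, and in 40 of them that library was ad libitum replicate 2. It was a fasting library in 1 of them, ad libitum replicate 1 in 2 and ad libitum replicate 3 in 6. The 40 include Chat, Slc5a7, Slc18a3, Lhx8 and Ngfr, which were selected for their level in ad libitum replicate 2. In bulk tissue, more cells of a type and more RNA per cell cannot be told apart.

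A pair of the cholinergic genes, Chat and Slc18a3, share a locus, and their upstream sequences are shown because both had the same 4 libraries on top in the same order. Slc18a3, which encodes the vesicular acetylcholine transporter, lies inside the span of Chat, which encodes choline acetyltransferase, on the same strand of chromosome 14. In 4 of the 8 annotated transcripts of Chat it falls wholly within an intron, and the annotated starts of the 2 genes are 1059 bp apart. The 250 bases before each start, from RefSeq on GRCm38.p6, are given 5′ to 3′ on the strand of the gene, with those of Slc5a7, the choline transporter gene on chromosome 17, and of the serotonergic genes Tph2 and Slc6a4. The files use GRCm39, so these positions apply to GRCm38.p6 alone. Chat is shown at chr14:32465910-32466159, Slc18a3 at chr14:32464851-32465100, Slc5a7 at chr17:54299035-54299284 and Tph2 at chr10:115185023-115185272, all on the minus strand, and Slc6a4 at chr11:76998347-76998596 on the plus strand. Capitals mark any match on either strand to TAATTA, a core of many homeodomain proteins, CCGGAA or CAGGAA, cores of ETS factors such as Fev, TATAAA, the TATA box, or TGACG, the core of the cyclic AMP response element.
Chat: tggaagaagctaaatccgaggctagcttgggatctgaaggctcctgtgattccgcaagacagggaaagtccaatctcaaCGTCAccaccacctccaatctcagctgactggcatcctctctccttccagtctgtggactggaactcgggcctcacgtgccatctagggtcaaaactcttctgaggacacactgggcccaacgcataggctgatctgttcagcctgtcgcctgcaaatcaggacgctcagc
Slc18a3: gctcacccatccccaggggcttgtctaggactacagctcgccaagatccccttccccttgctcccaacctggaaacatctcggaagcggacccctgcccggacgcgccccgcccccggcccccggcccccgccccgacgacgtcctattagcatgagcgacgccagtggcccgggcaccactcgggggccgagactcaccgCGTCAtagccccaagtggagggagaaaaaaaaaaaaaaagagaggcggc
Slc5a7: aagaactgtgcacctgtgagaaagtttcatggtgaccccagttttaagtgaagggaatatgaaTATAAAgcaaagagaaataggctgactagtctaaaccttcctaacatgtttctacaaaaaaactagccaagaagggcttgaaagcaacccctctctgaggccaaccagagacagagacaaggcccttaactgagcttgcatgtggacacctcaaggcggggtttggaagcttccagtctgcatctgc
Tph2: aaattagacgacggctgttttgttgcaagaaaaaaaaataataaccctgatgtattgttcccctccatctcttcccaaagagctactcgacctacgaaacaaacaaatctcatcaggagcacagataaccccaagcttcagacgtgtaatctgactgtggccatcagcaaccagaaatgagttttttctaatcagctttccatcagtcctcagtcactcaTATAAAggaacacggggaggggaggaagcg
Slc6a4: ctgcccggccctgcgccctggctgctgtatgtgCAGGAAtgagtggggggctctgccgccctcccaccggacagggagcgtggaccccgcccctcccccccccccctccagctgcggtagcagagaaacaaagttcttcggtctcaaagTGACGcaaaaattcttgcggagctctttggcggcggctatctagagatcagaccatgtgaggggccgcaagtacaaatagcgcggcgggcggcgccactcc

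TGACG was found in the windows of Chat and Slc18a3, 171 and 49 bases before the start (counted from the first letter of the match on the printed strand), in Slc6a4, and not in Slc5a7 or Tph2, and 17.8% of 32851 promoter windows of this length hold it. This motif was added after the sequences were seen. TATAAA was found in Slc5a7 and in Tph2, where it lay 30 bases before the start, and 12.4% of all windows hold it. CAGGAA was found in Slc6a4 and is held by 25.7% of all windows, while CCGGAA (12.03%) and TAATTA (4.84%) had no match in the 5 windows shown. The share of G and C differed widely between the neighbours, at 54.8% in the Chat window and 66.0% in that of Slc18a3, with a median of 52.4% over all windows. These matches describe letters and were not tested as binding sites. The bases just after the start were found in an annotated GENCODE transcript of the gene for Chat, Slc18a3, Slc5a7 and Tph2, but not for Slc6a4.

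The genes for making, loading and recycling acetylcholine had 1 common pattern, a single very high ad libitum library over a low level in the other 5. Chat was at 0.341, 0.393 and 1.24 CPM in fasting replicates 1, 2 and 3, and at 0.656, 22.9 and 2.14 CPM in ad libitum replicates 1, 2 and 3. The diets overlapped, since fasting replicate 3 lay above ad libitum replicate 1, and ad libitum replicate 2 was 10.7 times the next library (exact 95% interval 8.72 to 13.3, counting error only). That 1 library held 83.4% of all 1329 Chat counts.

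Slc5a7, which encodes the high-affinity choline transporter of cholinergic terminals, had the highest CPM per kb of exon of these 3 genes in every library. It was at 1.59, 1.46 and 2.69 CPM in fasting replicates 1, 2 and 3, against 2.12, 43.5 and 4.53 CPM in ad libitum replicates 1, 2 and 3. Ad libitum replicate 2 was 9.60 times the next library (8.33 to 11.1). Slc18a3 was at 0.296, 0.231 and 0.490 CPM under fasting and at 0.445, 10.6 and 0.684 CPM ad libitum, with ad libitum replicate 2 at 15.6 times the next library (10.9 to 23.0). Chat, Slc5a7 and Slc18a3 put the libraries in the same order at the top, ad libitum replicate 2, then ad libitum replicate 3, fasting replicate 3 and ad libitum replicate 1. Fasting replicates 1 and 2 came last for all 3 genes, and their order varied.

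**Figure D1:**
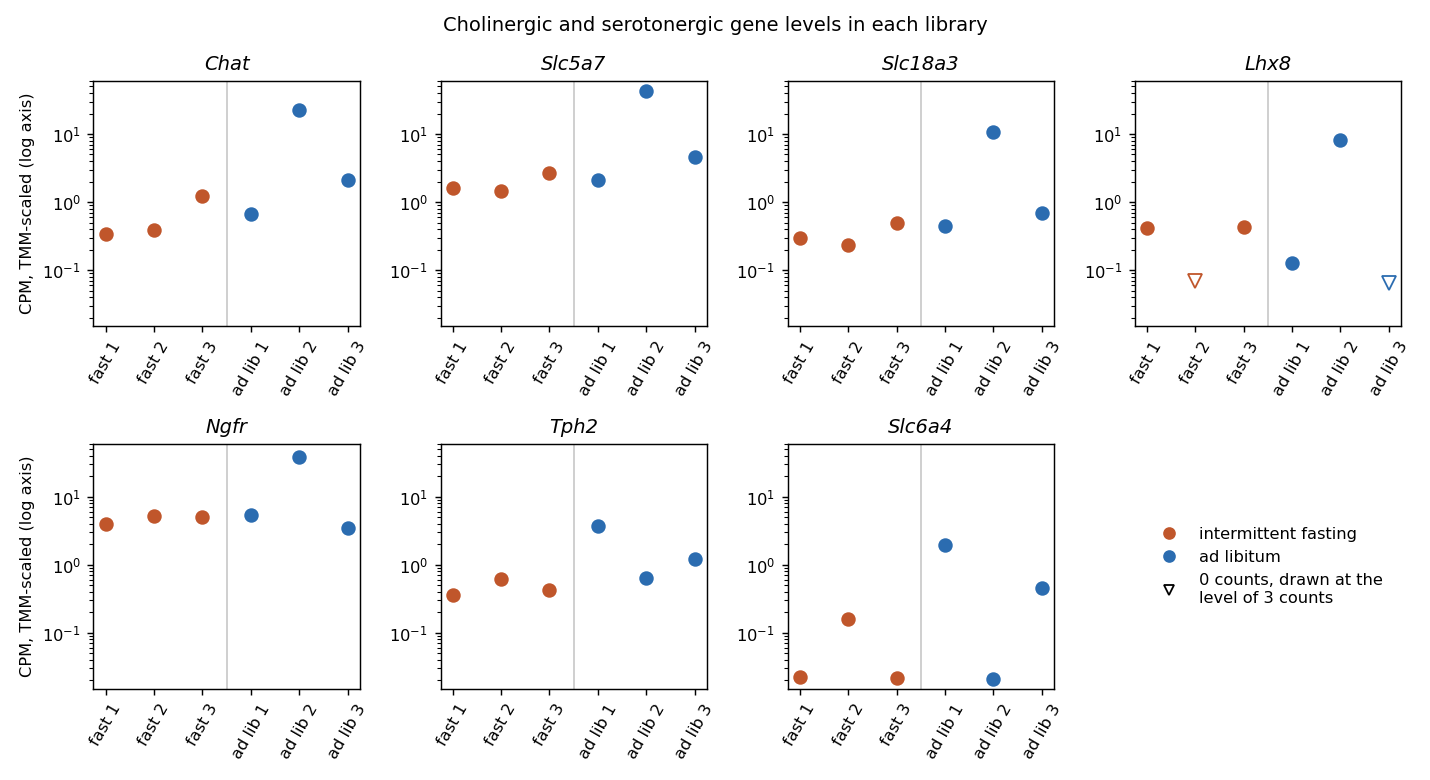
TMM-scaled CPM on a log axis for each of the 7 genes with a row in the table, with fasting libraries at the left (orange) and ad libitum libraries at the right (blue) of each panel, 1 point a library and open triangles for 0 counts drawn at the level of 3 counts. Ad libitum replicate 2 is the highest library for the 5 cholinergic genes (22.9 CPM for Chat), and ad libitum replicate 1 for Tph2 (3.77 CPM) and Slc6a4 (1.97 CPM).

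Lhx8 and Ngfr, which tell groups of cholinergic neurons apart, shared the high library but not the order of the others. Lhx8 encodes a LIM homeodomain factor that mice need for the cholinergic neurons of the forebrain. It was at 0.409, 0 and 0.426 CPM in fasting replicates 1, 2 and 3, and at 0.127, 8.12 and 0 CPM in ad libitum replicates 1, 2 and 3. Both a fasting and an ad libitum library thus had 0 counts, for which 3 counts allow a level of up to 0.0694 CPM in the smallest library. Ad libitum replicate 2 was 19.0 times the next library, here fasting replicate 3 (12.2 to 31.5), and held 89.9% of 437 counts.

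Ngfr encodes the p75 neurotrophin receptor, kept into adulthood by cholinergic neurons of the basal forebrain and present in other cell types too. It was at 3.96, 5.27 and 4.95 CPM under fasting, and at 5.38, 38.2 and 3.44 CPM ad libitum. Outside ad libitum replicate 2, where it was 7.10 times the next library (6.22 to 8.13), Ngfr stayed between 3.44 and 5.38 CPM. Ad libitum replicate 3, second for Chat, was the lowest of all 6 for Ngfr.

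The cholinergic genes did not keep 1 ratio across libraries. Lhx8 made up 26.2% of the summed counts of Lhx8 and Chat in ad libitum replicate 2 (exact 95% binomial interval 24.0 to 28.5%), whereas in ad libitum replicate 3 it made up 0 of 100 counts, which allows a share of up to 3%. Fasting replicate 3 had 25.6% (16.4 to 36.8%), an interval that holds the share in ad libitum replicate 2. Fasting replicate 1 had 54.5% (36.4 to 71.9%), fasting replicate 2 0 of 17 counts, which allows up to 17.6%, and ad libitum replicate 1 16.2% (6.19 to 32.0%). The Chat signal of ad libitum replicate 3 therefore came with less Lhx8 than that of ad libitum replicate 2, beyond counting error.

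The share of Slc5a7 over Slc5a7 and Chat varied less, at 82.4% (72.6 to 89.8%), 78.8% (68.2 to 87.1%) and 68.5% (61.2 to 75.1%) in fasting replicates 1, 2 and 3, and at 76.3% (68.1 to 83.3%), 65.5% (63.9 to 67.2%) and 67.9% (62.5 to 73.1%) in ad libitum replicates 1, 2 and 3. It was lowest in the libraries with most Chat, but Chat is itself part of the sum, and the intervals of the lowest shares overlap. Slc18a3 over Slc18a3 and Chat ran from 28.4 to 46.4% in the fasting libraries and from 24.2 to 40.4% in the ad libitum libraries, and each interval outside ad libitum replicate 2 overlapped its 31.7% (29.5 to 34.1%). Ngfr counts per Chat count were 11.6, 13.4 and 4 in fasting replicates 1, 2 and 3, and 8.19, 1.67 and 1.61 in ad libitum replicates 1, 2 and 3.

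**Figure D2:**
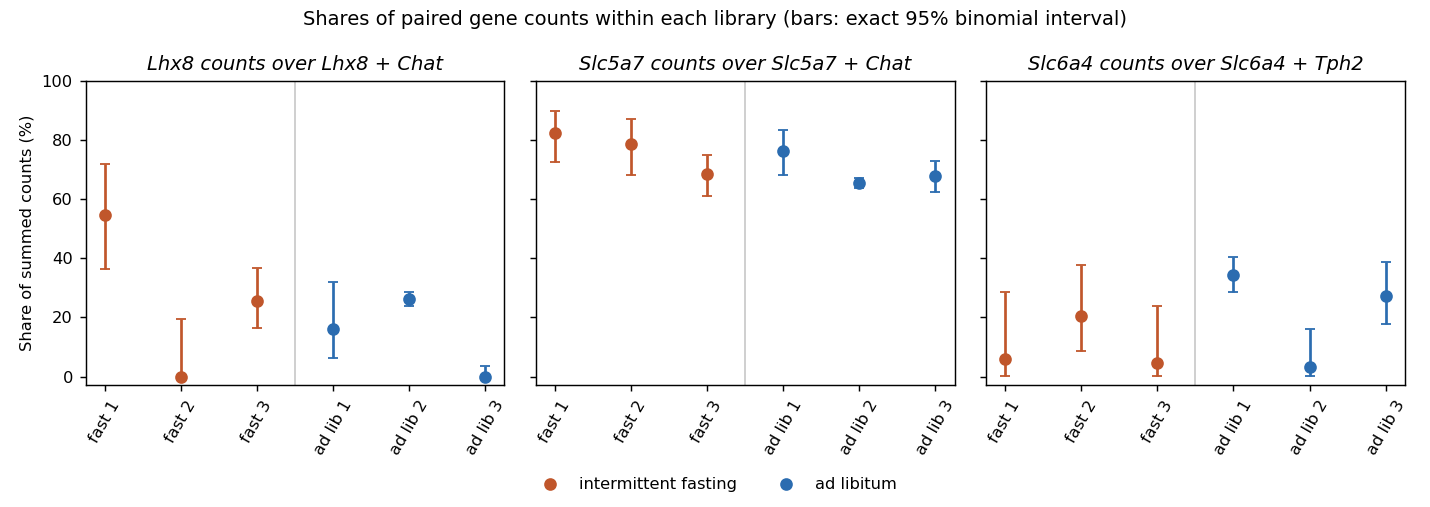
Share in percent of the summed counts of a gene pair within each library, with Lhx8 over Lhx8 and Chat, Slc5a7 over Slc5a7 and Chat, and Slc6a4 over Slc6a4 and Tph2, fasting libraries left (orange) and ad libitum libraries right (blue), bars being exact 95% binomial intervals. The Lhx8 share is 26.2% in ad libitum replicate 2 and 0% in ad libitum replicate 3, and the Slc6a4 share is 34.3% in ad libitum replicate 1.

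The serotonergic genes were highest in a different ad libitum library. Tph2 encodes tryptophan hydroxylase 2, the enzyme that commits tryptophan to serotonin in neurons. It was at 0.364, 0.624 and 0.426 CPM in fasting replicates 1, 2 and 3, from 16, 27 and 20 counts. In ad libitum replicates 1, 2 and 3 it was at 3.77, 0.640 and 1.20 CPM, from 178, 31 and 56 counts. All fasting libraries lay below all ad libitum libraries, but fasting replicate 2 and ad libitum replicate 2 were almost level, and the separation rests on 27 against 31 counts. Fasting below ad libitum with no overlap held for 15% of all genes tested.

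Slc6a4 encodes the serotonin transporter of raphe neurons. It had 1, 7 and 1 counts in fasting replicates 1, 2 and 3 and 93, 1 and 21 counts in ad libitum replicates 1, 2 and 3, or 0.0227, 0.162 and 0.0213 CPM under fasting against 1.97, 0.0207 and 0.449 CPM ad libitum. The diets overlapped, and ad libitum replicate 2, the library with most cholinergic signal, had as few counts as fasting replicates 1 and 3. Ad libitum replicate 1 held 75.0% of the 124 counts, and it was 4.39 times the next library for Slc6a4 (2.71 to 7.42) and 3.15 times for Tph2 (2.32 to 4.33). Both genes had ad libitum replicate 3 second. Slc6a4 made up 34.3% of the counts of the pair in ad libitum replicate 1 (28.7 to 40.3%) and 27.3% in ad libitum replicate 3 (17.7 to 38.6%), against 3.13% in ad libitum replicate 2 (0.0791 to 16.2%). In fasting replicates 1, 2 and 3 the shares were 5.88%, 20.6% and 4.76%, with intervals of 0.149 to 28.7%, 8.70 to 37.9% and 0.120 to 23.8%.

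Per kilobase of annotated exon, Ngfr had the highest level of the 7 genes in both diets, at 1.37 ± 0.199 CPM per kb under fasting and 4.55 ± 5.67 CPM per kb ad libitum (SD, n = 3 each). Slc5a7 followed, at 0.339 ± 0.120 under fasting and 2.96 ± 4.12 CPM per kb ad libitum, and Slc6a4 was lowest, at 0.0151 ± 0.0178 under fasting and 0.179 ± 0.226 CPM per kb ad libitum. Between them under fasting, Tph2 (0.164 ± 0.0472 CPM per kb), Slc18a3 (0.141 ± 0.0559), Chat (0.140 ± 0.107) and Lhx8 (0.110 ± 0.0953) differed by less than the larger SD of each pair, and so did Lhx8 and Slc6a4. In the ad libitum group the order was Ngfr, Slc5a7, Chat, Slc18a3, Lhx8, Tph2 (0.649 ± 0.580) and Slc6a4, and the SD exceeded the mean for all of them but Tph2, so no neighbours there differed beyond their spread.

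In the comparison of diets, none of the 6 genes tested was called by edgeR's quasi-likelihood test at an adjusted p below 0.05, a threshold that 0.497% of all 19109 genes passed. All 6 log2 fold changes were negative, fasting minus ad libitum, and since the cholinergic genes were selected on these counts nothing is read from their direction. At an unadjusted p below 0.05 the count was 1 of 6, Tph2, and 20.4% of all genes passed that level. DESeq2 called Tph2 alone among the 5 genes it gave an adjusted p, beside 7.4% of all genes, and gave none for Slc18a3 or Lhx8. Limma-voom called 0.

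Tph2 averaged 0.471 ± 0.136 CPM under fasting and 1.87 ± 1.67 CPM ad libitum (SD, n = 3 each). Its log2 fold change was -1.98 (SE 0.70) at an edgeR adjusted p of 0.193 and a DESeq2 adjusted p of 0.0329. Without ad libitum replicate 1 it was -0.96 (edgeR adjusted p = 0.167). Chat averaged 0.657 ± 0.503 CPM under fasting and 8.56 ± 12.4 CPM ad libitum, and edgeR put the log2 fold change at -3.69 (SE 1.52) with an adjusted p of 0.260. Without ad libitum replicate 2 that of Chat was -1.08 (SE 0.74) at an edgeR adjusted p of 0.505. Slc5a7 (-3.12, SE 1.27) and Slc18a3 (-3.52, SE 1.46) likewise went to -0.80 and -0.73 without that library.

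Lhx8 and Ngfr turned direction without ad libitum replicate 2. For Lhx8 the log2 fold change stood at -3.28 (SE 2.12, edgeR adjusted p = 0.449) with all libraries and 2.09 without it (SE 1.54, edgeR adjusted p = 0.533), and that of Ngfr was -1.73 (SE 0.98, edgeR adjusted p = 0.393) and 0.09 (SE 0.23, edgeR adjusted p = 0.868). Slc6a4 was not tested with all 6 libraries. Fitted with no filter its log2 fold change came to -3.54, with an edgeR adjusted p of 0.270 (SE 1.53), and without ad libitum replicate 2 it came to -4.12 (SE 0.97, edgeR adjusted p = 0.128). There it passed the filter only through the ad libitum libraries in which it was high, so that value supports nothing. In the fit without both ad libitum replicates 1 and 2, which leaves 1 ad libitum library assumed to vary like the fasting ones, Slc5a7 was at -1.24 and Tph2 at -1.34, and none of the 7 genes was called (3 at an unadjusted p below 0.05), beside 2.81% of all genes called and 22.5% at an unadjusted p below 0.05 in the same fit. The fit without both was chosen after the data were seen. Slc6a4 is among the 7 genes of that fit and among the 3. It passed the filter there only through ad libitum replicate 3, with 21 counts against 1, 7 and 1 under fasting. The count of 3 therefore supports nothing beside the share over all genes.

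**Figure D3:**
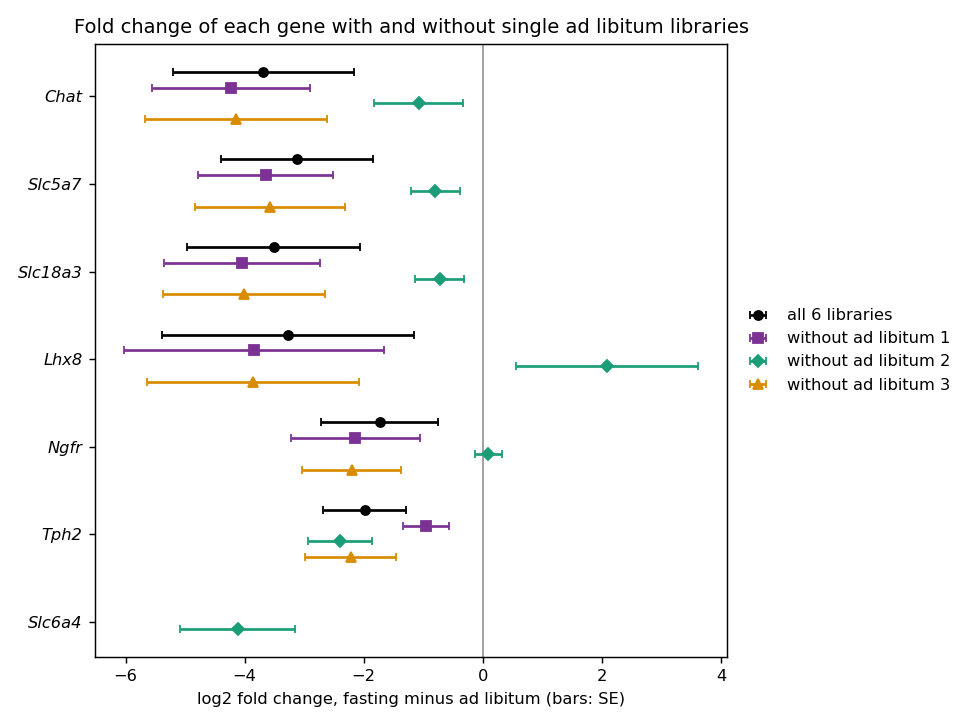
Log2 fold change, fasting minus ad libitum, with its SE for each gene from edgeR with all 6 libraries (black circles) and without ad libitum replicate 1 (purple squares), 2 (green diamonds) or 3 (orange triangles). Without ad libitum replicate 2 the value for Chat is -1.08 and that for Lhx8 is 2.09, while Slc6a4, of the fits drawn, has a value only in that one, -4.12.

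In ad libitum replicate 2, markers of several other brain regions stood apart together with the cholinergic genes. The same did not hold for ad libitum replicate 3, which was second for Chat, Slc5a7 and Slc18a3 but had the lowest summed striatal and hypothalamic levels of all 6 libraries. All 9 striatal projection neuron markers were highest in ad libitum replicate 2, where their summed level was 1363 CPM, against 191 to 249 CPM under fasting and 192 and 177 CPM in ad libitum replicates 1 and 3, and none was at 0 in any library. Adora2a, the adenosine receptor of indirect-pathway neurons, was at 1.48, 1.41 and 4.44 CPM under fasting and at 1.88, 51.1 and 1.05 CPM ad libitum. All 6 choroid plexus markers were also highest in that library, at a sum of 100 CPM, against 16.7 to 31.6 CPM under fasting and 17.1 and 29.3 CPM in ad libitum replicates 1 and 3. All 6 thalamic markers were lowest there, at a sum of 56.4 CPM, against 729 to 1304 CPM under fasting and 1313 and 387 CPM in ad libitum replicates 1 and 3. Over all genes tested, 23.2% were highest and 22.5% lowest in ad libitum replicate 2. Whether the tissues these lists mark had a part in the cholinergic values was not tested.

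Among 7 other markers of forebrain cholinergic neurons and their precursors, 4 were highest in ad libitum replicate 2 and 2 were lowest there. Gbx1, a homeobox gene, was at 0.205, 0.254 and 0.405 CPM under fasting and at 0.0847, 6.24 and 0.0641 CPM ad libitum. Nkx2-1 and Lhx6, homeobox genes of the ventral forebrain, were also highest there. Gbx2, a gene of the thalamus too, was lowest in that library, at 9.80, 8.07 and 5.27 CPM under fasting and at 11.4, 0.578 and 14.1 CPM ad libitum. So was Zic4, at 11.2, 4.67 and 7.63 CPM under fasting and at 10.1, 3.22 and 5.30 CPM ad libitum. Isl1, a factor of striatal cholinergic and cranial motor neurons among others, was at 0.0855 CPM in ad libitum replicate 3, the library second for Chat, and between 3.91 and 11.9 CPM in the other 5.

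For other places that hold cholinergic neurons, the values were mixed. Of 9 cranial motor neuron markers 3 had a row, Isl1, Prph and Calca, and Prph, a neuronal intermediate filament gene, was at 2.25, 6.06 and 3.11 CPM under fasting and 1.91, 8.57 and 3.10 CPM ad libitum. The 8 markers of the medial habenula summed to 52.7 to 83.7 CPM under fasting and 56.7 to 90.9 CPM ad libitum, highest in ad libitum replicate 3. Nwd2 and Lrrc55 carried that highest sum, at 40.0 and 34.5 CPM. Of the 8, 2 were highest in ad libitum replicate 3. In ad libitum replicate 2, 3 were highest and 3 lowest. Tac2 was at 2.48, 6.98 and 4.26 CPM under fasting and at 1.55, 10.8 and 0.641 CPM ad libitum. Gpr151 of this list, an orphan receptor gene of habenular neurons, was at 0.699 ± 0.0719 CPM under fasting and 0.309 ± 0.0365 CPM ad libitum (edgeR adjusted p = 0.0741). Gng8, a G protein subunit gene of the same list, went the other way, at 1.28 ± 0.479 CPM under fasting and 2.14 ± 0.371 CPM ad libitum (edgeR adjusted p = 0.210), and 4 of the 8 had a negative log2 fold change. The 11 of 12 hypothalamic markers with a row summed to 135 to 167 CPM under fasting and to 35.6, 537 and 10.5 CPM in ad libitum replicates 1, 2 and 3, a sum led by Pmch, the melanin-concentrating hormone gene, at 432 CPM in ad libitum replicate 2. Of the 11, 3 were highest in that library, Pmch, Hcrt and Pomc, while DESeq2 called 4 others and edgeR 0 (4 at an unadjusted p below 0.05). Over all 10 region and cell type lists, 65 genes were tested by edgeR, with 0 called and 9 at an unadjusted p below 0.05. DESeq2 called 5 genes of these lists. Over all genes, 20.4% had an unadjusted p below 0.05 and DESeq2 called 7.4%. Npvf, a neuropeptide gene, was at 4.48, 1.29 and 7.19 CPM under fasting and at 0, 0.0620 and 0 CPM ad libitum (edgeR adjusted p = 0.0599, DESeq2 adjusted p = 6.86e-06). Ghrh and Gal were also called higher under fasting by DESeq2, and Crh lower.

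The cortical excitatory neuron markers summed to 96.1 to 168 CPM under fasting and 53.8 to 179 CPM ad libitum, a sum carried by Slc17a7, the vesicular glutamate transporter gene. Of the 6, the other 5 had negative log2 fold changes, 3 at an unadjusted p below 0.05, and the median was -0.90. That p level was passed by 20.4% of all genes. Tbr1, a cortical transcription factor gene, was at 0.955, 0.855 and 1.54 CPM under fasting and at 1.65, 8.16 and 3.83 CPM ad libitum (edgeR adjusted p = 0.153, DESeq2 adjusted p = 0.00385).

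**Figure D4:**
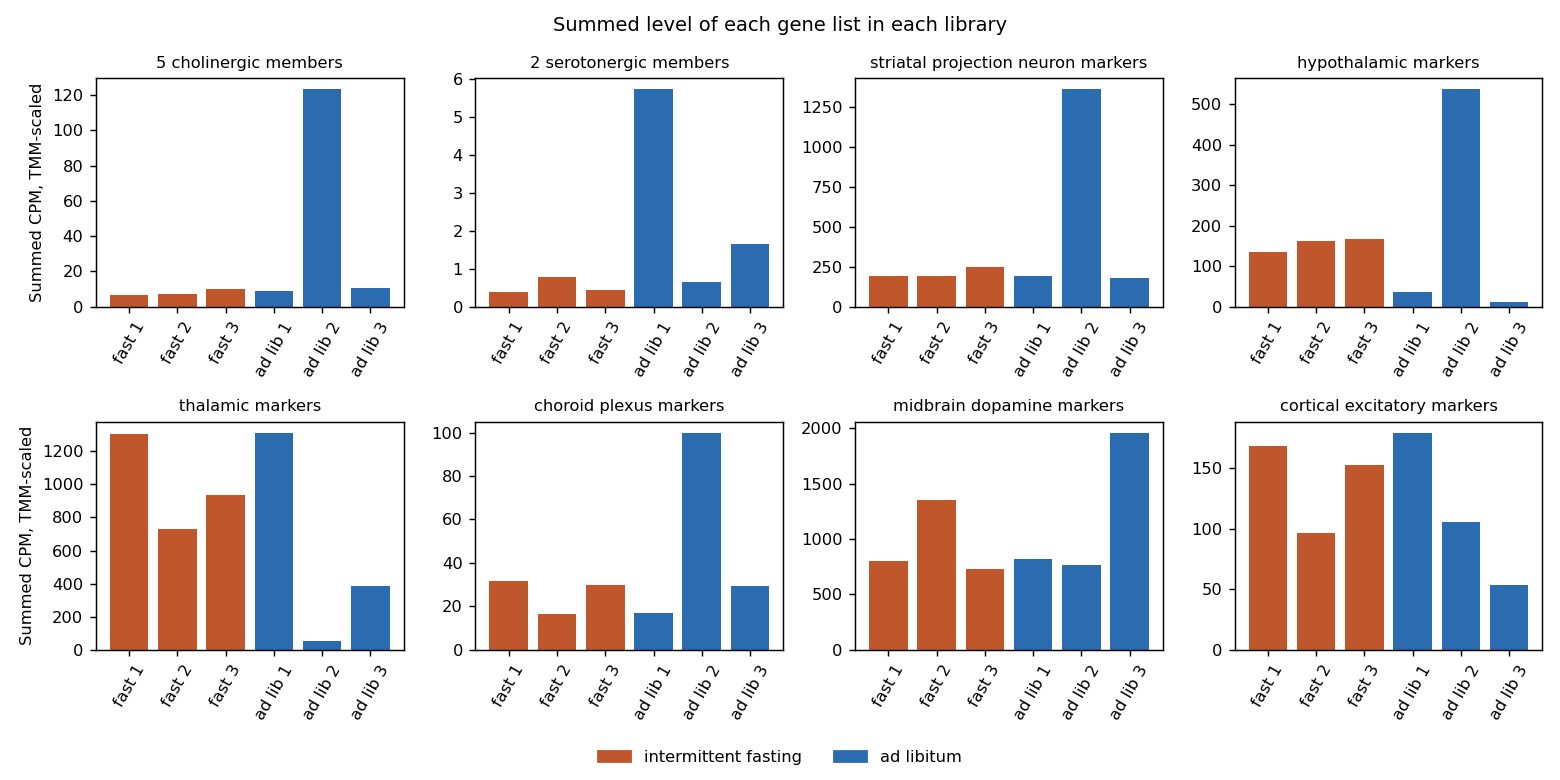
Summed TMM-scaled CPM of each gene list in each library, fasting libraries left (orange) and ad libitum libraries right (blue), with a separate axis from 0 in each panel. In ad libitum replicate 2 the 5 cholinergic genes sum to 123 CPM and the striatal markers to 1363 CPM while the thalamic markers sum to 56.4 CPM, and the 2 serotonergic genes sum to 5.74 CPM in ad libitum replicate 1.

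Transcription factor genes of the noradrenaline and serotonin lists, Tfap2b and Gata3, were like Tph2 and Slc6a4 highest in ad libitum replicates 1 and 3, with Gata3 picked after its values were seen. Tfap2b, an AP-2 family factor, was at 1.30, 0.948 and 0.789 CPM under fasting and at 6.99, 0.475 and 6.33 CPM ad libitum (log2 fold change -2.18, SE 0.93, edgeR adjusted p = 0.272). Gata3, which in mice serves some hindbrain serotonergic and midbrain GABAergic neurons, was at 2.46, 8.14 and 3.09 CPM under fasting and at 13.9, 3.30 and 26.1 CPM ad libitum (-1.66, SE 0.86, edgeR adjusted p = 0.353). Without ad libitum replicate 2 edgeR called Tfap2b (log2 fold change -2.72, adjusted p = 0.0372), in a fit that called 45 of 19172 genes. That fit left out the library in which Tfap2b was lowest, so the call supports nothing. The rest of the serotonin list did not share the highest library of Tph2, since 0 of its 13 genes with a row were highest in ad libitum replicate 1. Of the 13, 10 were highest in ad libitum replicate 3, second for Tph2 and Slc6a4, where the midbrain dopamine markers also had their highest sum. Like Gata3, Gata2 had ad libitum replicates 3 and 1 on top, at 11.3 and 9.36 CPM. Lmx1b, a factor that serotonin and midbrain dopamine neurons both need in mice, was at 8.80, 14.6 and 9.55 CPM under fasting and at 4.76, 11.7 and 11.3 CPM ad libitum, lowest in ad libitum replicate 1. The 9 Hox genes listed as hindbrain markers were not analysed here, so that list gives no value beside the serotonergic ones. Outside the lists, Fat2, a cerebellar granule cell gene, was at 8.76 CPM in ad libitum replicate 3. It was at 0.148 CPM in ad libitum replicate 1 and at most 0.362 CPM in any library but replicate 3 of that diet. Whether hindbrain tissue had a part in the serotonergic values was not tested.

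Other genes of the 3 transmitter systems were in part high in ad libitum replicate 2 and in part not. Over 6 lists of 67 genes, 61 were tested, 0 were called by edgeR and 0 by limma-voom, 12 had an unadjusted p below 0.05 and DESeq2 called 5, Nkx2-2, Bche, Slc44a1, Prima1 and Adra1a. Over all genes, 20.4% had an unadjusted p below 0.05 and DESeq2 called 7.4%. For acetylcholine breakdown and choline supply, 0 of 9 were called by edgeR (4 at an unadjusted p below 0.05, 3 by DESeq2), with a median log2 fold change of -0.41 beside -0.005 over all genes. That median was -0.29 without ad libitum replicate 2 and -0.08 without ad libitum replicate 3, and edgeR called Bche and Prima1 without ad libitum replicate 1. Ache, the acetylcholinesterase gene, averaged 168 ± 10.8 CPM under fasting and 141 ± 16.5 CPM ad libitum (SD, n = 3 each). Bche, which encodes butyrylcholinesterase, was at 8.05, 9.92 and 9.60 CPM under fasting and 13.9, 19.7 and 17.6 CPM ad libitum (log2 fold change -0.89, SE 0.15, edgeR adjusted p = 0.0599). Slc44a1, a choline carrier of many cells, averaged 127 ± 8.78 CPM under fasting and 168 ± 24.3 CPM ad libitum (edgeR adjusted p = 0.109). Bche and Slc44a1 lay lower in all 3 fasting libraries than in any ad libitum library and Ache higher, and 27.5% of all genes tested had no overlap in either direction.

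Of 14 acetylcholine receptor genes 0 were called by edgeR, DESeq2 or limma-voom (1 at an unadjusted p below 0.05), with a median log2 fold change of 0.01 that was 0.36 without ad libitum replicate 3. Chrnb2, the main beta subunit of brain nicotinic receptors, averaged 125 ± 13.7 CPM under fasting and 93.2 ± 17.3 CPM ad libitum (edgeR adjusted p = 0.194). Chrna4, its usual alpha partner, was at 149, 138 and 124 CPM under fasting and at 146, 67.0 and 154 CPM ad libitum, lowest in ad libitum replicate 2. The muscarinic receptor genes Chrm1 and Chrm4, named after their values were seen, were highest in ad libitum replicate 2, with Chrm4 at 1.23, 1.64 and 2.88 CPM under fasting and 1.69, 12.6 and 1.86 CPM ad libitum. Chrna2, another nicotinic alpha subunit gene, was at 0.659, 0.647 and 1.54 CPM under fasting and 0.169, 0.661 and 0.0855 CPM ad libitum.

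Of 13 serotonin pathway genes tested 0 were called by edgeR (2 at an unadjusted p below 0.05, 1 by DESeq2), with a median log2 fold change of -0.30, and of 12 serotonin receptor genes 0 (2 at an unadjusted p below 0.05, 0 by DESeq2), with a median of -0.16. Leaving out ad libitum replicate 3 put the pathway median at 0.09, and leaving out fasting replicate 2 put it at -0.59. That of the receptors kept its sign, from -0.29 to -0.05 over the fits without 1 library. Without ad libitum replicate 1 edgeR called Nkx2-2 and the receptor gene Htr7, in a fit that called 1187 of 19207 genes. Nkx2-2, a homeobox gene of oligodendrocytes as well as of serotonergic precursors, averaged 9.19 ± 0.996 CPM under fasting and 13.2 ± 0.901 CPM ad libitum (log2 fold change -0.52, SE 0.10, edgeR adjusted p = 0.0708). Slc29a4, a plasma membrane monoamine transporter, averaged 16.7 ± 2.74 CPM under fasting and 23.5 ± 5.42 CPM ad libitum (edgeR adjusted p = 0.239). The receptor gene Htr2c averaged 123 ± 20.2 CPM under fasting and 160 ± 19.4 CPM ad libitum (edgeR adjusted p = 0.193), and Htr5b 0.528 ± 0.143 CPM under fasting and 0.239 ± 0.0654 CPM ad libitum (edgeR adjusted p = 0.144).

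No gene specific to noradrenaline neurons had a value here. Of 12 noradrenaline pathway genes 8 were tested, and Th, Ddc, Gch1, Slc18a2 and Maoa among these also serve dopamine. None was called by edgeR, DESeq2 or limma-voom (1 at an unadjusted p below 0.05), with a median log2 fold change of -0.14 that was 0.24 without ad libitum replicate 3. Slc18a2, the vesicular monoamine transporter shared by all 3 monoamines, was at 108, 202 and 96.8 CPM under fasting and at 100, 116 and 287 CPM ad libitum. Cyb561, the cytochrome that passes electrons into monoamine vesicles, averaged 54.9 ± 0.802 CPM under fasting and 47.2 ± 4.46 CPM ad libitum (edgeR adjusted p = 0.170). Of 9 adrenoceptor genes 0 were called by edgeR (2 at an unadjusted p below 0.05, 1 by DESeq2), with a median of 0.11 that was -0.05 without fasting replicate 1 and 0.33 without ad libitum replicate 1. Adra1a averaged 11.3 ± 0.531 CPM under fasting and 8.79 ± 0.684 CPM ad libitum (edgeR adjusted p = 0.0968, DESeq2 adjusted p = 0.0334).

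Among 1885 genes with a mean of at least 1 CPM and a range of at least 1 on the log2 scale, with the 7 genes described above left out of the search, likeness to Chat was measured by Pearson's r of log2 CPM over the 6 libraries, which share ad libitum replicate 2 as their far point. The closest among them were D430036J16Rik (r = 0.993), Bcl11b (0.988), a zinc finger factor of striatal and deep cortical neurons, Olfml2b (0.983), Aldh3b1 (0.980) and Ptgs2 (0.978), the inducible cyclooxygenase gene. Bcl11b was at 7.30, 10.9 and 13.8 CPM under fasting and 11.9, 75.6 and 20.2 CPM ad libitum. For Tph2 the closest in the same search were Nrtn (r = 0.962), which encodes the growth factor neurturin, Gm50462 (0.915), Clec7a (0.912), a receptor of myeloid cells, Gm37254 (0.905) and Epsti1 (0.897).

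All tested genes with at least 1 CPM in their highest library were ranked by its ratio to the next. Lhx8, Slc18a3 and Gbx1 were among the first 10. Since the cholinergic genes were selected on their high library, the ranks of Lhx8 and Slc18a3 restate that selection. The other genes of the 10 with ad libitum replicate 2 on top were Sh3rf2 (22.7-fold), Cd4 (15.0-fold), Adora2a (11.5-fold), Ankrd63 (11.2-fold) and Lrrc10b (11.1-fold). Fat2, known from cerebellar granule cells, was 24.2-fold higher in ad libitum replicate 3 than in the next library, and Oxt, the oxytocin gene, 11.5-fold higher in fasting replicate 1.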

How the data were processed

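Polyadenylated RNA of substantia nigra was sequenced with a strand-keeping kit, per the labels' protocols. The authors deposited 1 table of whole-number estimated counts per gene, unscaled between libraries. Salmon and DESeq2 1.40.2 with GRCm39 (mm39) are named in the submitters' processing notes, with neither role nor order. Not given in the sources used here were the annotation release and the strand setting. Rounding changed 0 values. The smallest sum of a gene over the libraries was 60, so a gene below that had no row to test.

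Genes were filtered with filterByExpr (19109 kept), scaled by TMM and compared by edgeR 4.0.16 (quasi-likelihood, robust, two-sided, under R 4.3.3) with diet as the only term, tested on simulated data, and p-values were adjusted by Benjamini-Hochberg over all genes, with calls below 0.05. Alternatives used DESeq2 1.42.0, limma-voom 3.58.1, other scaling and filters, a replicate block and single libraries left out. The log2 CPM values behind likeness used a prior count of 2. Depth differed little between libraries, and intervals cover counting error only. No pair of libraries agreed within counting noise (smallest chi-square per degree of freedom 8.17). An exact permutation of 3 against 3 cannot give a p below 0.1, so none was run.

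The members and lists were chosen with earlier results of these data known. Named genes were the members, the 2 genes of smallest p and the gene of highest CPM of each list, the 5 most like Chat and Tph2, and the 10 with the largest ratio of highest to next library. Some genes that this rule names are not reported here. Exon lengths, overlaps and shared words of 31 bases came from GENCODE M21 (GRCm38). Slc18a3 shared no word with another gene, Chat 0.276% and Ngfr 1.46%. Chat and Slc6a4 have opposite-strand neighbours, Gm2990 and Gm12343, whose reads could be counted with theirs if strand was not used. Promoters were matched by symbol for 9 of 10 genes.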

Additional observations from a re-analysis of the deposited data

How the results depend on the processing

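The number of genes called over the whole table was 95 (28 higher and 67 lower under fasting) and depended on the setting: DESeq2 called 1395, limma-voom 32, edgeR with library totals only 10 (8 higher and 2 lower) and without robust shrinkage 9, and between 0 and 1187 without 1 library. It was 0 without fasting replicate 1 or 3 (2452 and 2495 at an unadjusted p below 0.05). Leaving out ad libitum replicates 1, 2 and 3 in turn gave 1187, 45 and 1. Without both ad libitum replicates 1 and 2 it was 540. Of the cholinergic and serotonergic genes listed at the outset 0 were called in any edgeR or limma-voom fit run, and DESeq2 called 1, Tph2. Of 88 log2 fold changes under alternatives, 83 kept direction and side of the threshold. Lhx8 ran from -3.86 to 2.09 and Ngfr from -2.20 to 0.09 without 1 library. Those that reversed were Lhx8 and Ngfr, at 2.09 and 0.09 without ad libitum replicate 2 and at 6.68 and 0.46 without ad libitum replicates 1 and 2, where Lhx8 has 0 ad libitum counts and its value depends on the prior count. The ratio of the highest to the next library stayed within counting error under both other scalings for all 7 genes. The replicate block, for numbers shared only by name (same-number correlations 0.206, -0.0386 and -0.106), gave 285 calls over the table, 0 among these genes and a log2 fold change of -2.49 for Chat. Slc6a4, Lhx8 and Slc18a3 have so few counts outside 1 library that depth limits them.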
